A study of Mus musculus with 6 samples.

Results

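The transcripts of 10 genes of cAMP signalling were followed in single oocytes of the mouse, collected at the germinal vesicle (GV) stage, in which the nucleus is intact and meiosis rests in prophase. The genes are Gpr3, Gnas, Adcy3, Adcy9, Pde3a, Prkaca, Prkacb, Prkar1a, Prkar2a and Prkar2b. They were chosen by name from the pathway, and all 10 were among the 25239 genes of the count table. The libraries are 3 of oocytes injected with water and 3 of oocytes that received mixed phthalate metabolites, the breakdown products of a class of plasticizers. All oocytes came from female CD-1 mice, an outbred strain, aged 4 to 6 weeks. They were injected inside their cumulus-oocyte complexes, then cultured in maturation medium with 200 mIU/mL follicle-stimulating hormone and 10% fetal bovine serum. For every library 50 ug/mL pyruvate is also recorded. The labels give neither the dose nor the make-up of the mixture. They can be read as 3 oocytes per group or as 1, so "oocyte" with a number below means a library. They also name no animal or culture. Each group was therefore treated as 1 sample, no difference below was tested, and the counts of the 10 genes are given for each library. Many other genes are given only as group sums or ratios, which do not show whether 1 library drives them.

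Cyclic AMP (cAMP) holds the oocyte in prophase arrest. The receptor GPR3 signals without an added ligand through the G protein Gs, whose alpha subunit is encoded by Gnas, to adenylyl cyclases that make cAMP. cAMP binds the regulatory subunits of protein kinase A and frees its catalytic subunits, which keep the cyclin B kinase off by acting on WEE2 and CDC25B. The phosphodiesterase PDE3A destroys cAMP, and cGMP entering from the cumulus cells through gap junctions restrains it until the luteinizing hormone surge.

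Total gene counts per library ranged from 252267 to 300917. At this depth the members were read thinly. Summed over water libraries they had 454 counts, 0.0532% of all gene counts (95% exact binomial interval 0.0484 to 0.0583), and over phthalate libraries 424, 0.0516% (0.0468 to 0.0567). Between 68.0% and 71.1% of the counts from 1 to 20 were even numbers, as when each mate of a pair adds 1 count. For some genes intervals are also given for counts divided by 2, called read pairs, and these are wider. All intervals cover counting error only. The 14 oocyte markers each had counts in both groups, among them H1f8 with a mean of 2235 counts per library, though Figla had 0 counts in phthalate oocyte 1. They took 3.45% of gene counts in water (3.41 to 3.48) and 3.19% in phthalate (3.15 to 3.23), while the single libraries of the groups overlapped in this share. Of the 14, 11 had a lower and 3 a higher level in phthalate, with a median log2 ratio of phthalate over water of -0.12 and Kit past 1.5-fold lower at -0.63. Of all 4644 genes that passed a filter on low counts, 2267 were lower and 8.14% were past 1.5-fold lower. The part of these markers in the results was not tested. Of 20 cumulus and granulosa markers 10 had a count of 0 in every library, including Npr2, Gja1, Amh and Foxl2. The 5 theca and stroma markers had 4 counts in water and 0 in phthalate, and the 4 blood and immune markers had 0 counts.

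Promoter sequences are shown for 3 members whose windows hold the cAMP response core: Gpr3, whose libraries did not overlap between the groups, and Prkar1a and Prkar2a, the regulatory subunits with the most counts, whose balance varied between libraries. Each window runs from 250 bases before an annotated transcript start to 50 bases after it, 5′ to 3′ on the strand of the gene, from RefSeq on GRCm38.p6. Capitals mark TGACG, the core of the cAMP response element, or its reverse complement CGTCA, and they include the full element TGACGTCA where present.
Gpr3, chr4:133212487-133212786, minus strand: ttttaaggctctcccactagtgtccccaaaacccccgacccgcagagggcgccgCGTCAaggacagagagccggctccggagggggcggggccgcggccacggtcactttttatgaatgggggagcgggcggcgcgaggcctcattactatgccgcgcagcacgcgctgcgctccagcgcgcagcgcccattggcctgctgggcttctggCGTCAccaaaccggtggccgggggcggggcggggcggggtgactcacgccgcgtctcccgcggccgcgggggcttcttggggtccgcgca
Prkar1a, chr11:109650699-109650998, plus strand: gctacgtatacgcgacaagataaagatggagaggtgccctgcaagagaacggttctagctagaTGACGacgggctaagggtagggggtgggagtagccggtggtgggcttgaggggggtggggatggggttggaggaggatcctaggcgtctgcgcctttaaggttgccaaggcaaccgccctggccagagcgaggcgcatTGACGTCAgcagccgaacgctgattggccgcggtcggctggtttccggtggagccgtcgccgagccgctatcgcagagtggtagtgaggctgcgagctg
Prkar2a, chr9:108691893-108692192, plus strand: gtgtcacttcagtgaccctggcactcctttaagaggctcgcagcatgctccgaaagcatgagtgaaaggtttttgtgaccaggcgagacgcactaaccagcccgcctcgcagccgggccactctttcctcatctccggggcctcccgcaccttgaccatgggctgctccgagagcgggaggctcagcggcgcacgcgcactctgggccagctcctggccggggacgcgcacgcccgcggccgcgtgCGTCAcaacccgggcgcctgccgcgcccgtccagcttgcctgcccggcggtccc

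The Gpr3 window holds the core at 196 and at 40 bases before the start, each as CGTCA. The Prkar2a window holds it at 4 bases before the start. The Prkar1a window shown holds the core at 187 bases and the full element at 49 bases before the start. It is 1 of 6 windows of that gene and was picked after the search because it holds the full element before the start. Of the others, 3 hold no core, 1 holds the core alone and 1 overlaps the window shown. RefSeq listed 22 windows for 9 of the members, with none for Pde3a, and several windows of a gene overlap. The full element was in 2 of the 22, both covering the same site of Prkar1a, and in 1.79% of all 32851 windows. The core, counted on both strands and including the full element, was in 11 of the 22 and in 20.8% of all windows. The 2 windows of Adcy3, whose groups did not overlap either, and the 2 of Prkar2b hold neither. These matches describe the letters of the windows and say nothing about binding.

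Gpr3, the receptor that keeps cAMP high, was lower in the phthalate libraries. The gene lies at chr4:133209340-133212536 on the minus strand of GRCm38, and no other RefSeq gene overlaps it. Its level in counts scaled to 1000000 gene counts per library (CPM) was 92.8, 39.9 and 38.8 in water oocytes 1, 2 and 3, from 25, 12 and 11 counts. In phthalate oocytes 1, 2 and 3 it was 23.8, 27.1 and 18.2 CPM, from 6, 8 and 5 counts. The groups did not overlap, on CPM or on the TMM-scaled levels (rescaled for library composition) by which overlap was judged throughout, although the lowest water library exceeded the highest phthalate library by only 3 counts, and water oocyte 1 stood well above the other two water libraries.

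In sums, Gpr3 had 48 counts in water and 19 in phthalate, a log2 ratio of phthalate over water of -1.26 (95% interval -2.11 to -0.47), or 2.40-fold lower. On read pairs the interval was -2.52 to -0.13. Without water oocyte 1 the log2 ratio was -0.77 and its interval, -1.72 to 0.17, held 0. In the 1727 genes that averaged 10 to 20 counts per library, the log2 ratio was as low as that of Gpr3 or lower in 16 genes, 0.926%. Gpr3 was singled out among the 10 members after its values were seen. The cumulus and granulosa markers also had most counts in water oocyte 1, with 39, 23 and 13 counts in the water libraries and 19, 26 and 10 in the phthalate libraries. Nr5a2 alone gave 32, 23 and 9 of them in the water libraries and 16, 15 and 8 in the phthalate libraries. Their part in the Gpr3 values was not tested.

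The close relatives of Gpr3 that also couple to Gs, Gpr6 and Gpr12, had 0 counts in all 6 libraries. A count of 0 allows up to 9.97 to 11.9 CPM in a library, so low levels of either receptor were not detectable at this depth.

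**Figure D1:**
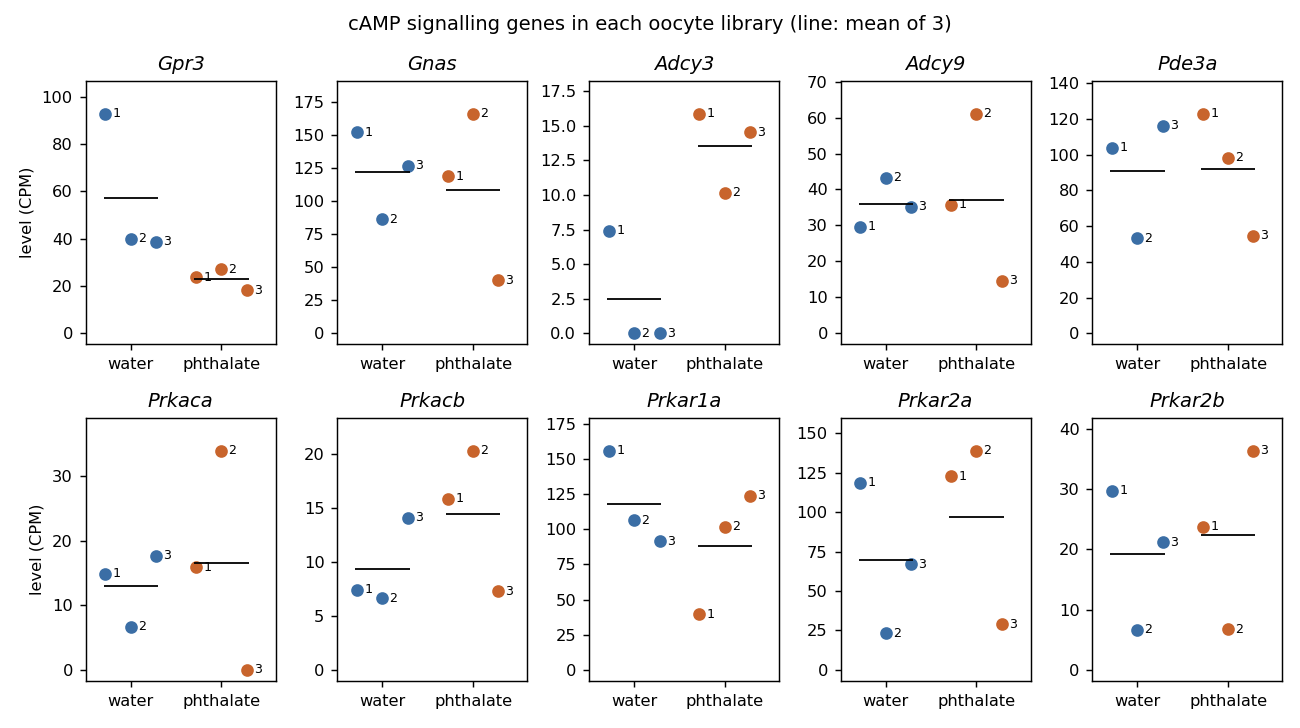
Level of each of the 10 genes in CPM (vertical axes, each with its own scale) in 3 water (blue) and 3 phthalate (orange) oocyte libraries, numbered beside the points, with the mean of each group as a line. Gpr3 and Adcy3 are the only panels in which the groups do not overlap, and Adcy3 rests on 2 and 11 counts.

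Gnas, which encodes the alpha subunit of Gs, was the most abundant member in counts. It lies at chr2:174284320-174346744 on the plus strand, a locus with several promoters and an antisense transcript. The deposited table gives 1 value for all its products. The counts were 41, 26 and 36 in the water libraries and 30, 49 and 11 in the phthalate libraries, and the level ran from 40.01 CPM in phthalate oocyte 3 to 166 CPM in phthalate oocyte 2. The highest and the lowest library were thus both phthalate oocytes. The log2 ratio was -0.12 (-0.55 to 0.30) and became -0.59 (-1.15 to -0.06) without phthalate oocyte 2. Gnasas1, the antisense gene that overlaps Gnas, had 1 count over all libraries.

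The adenylyl cyclases were read thinly. Adcy9, a membrane-bound cyclase, lies at chr16:4284886-4437236 on the minus strand and had 8, 13 and 10 counts in the water libraries and 9, 18 and 4 in the phthalate libraries. Its highest and lowest libraries were phthalate oocytes 2 and 3, at 61.0 and 14.5 CPM, and the sums were equal at 31 counts. Its log2 ratio was 0.07 (-0.69 to 0.84).

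Adcy3, the cyclase named in earlier work on arrest of the rodent oocyte, lies at chr12:4133116-4213525 on the plus strand. It had 2, 0 and 0 counts in the water libraries and 4, 3 and 4 in the phthalate libraries. The groups did not overlap, and the log2 ratio was 2.53 with an interval from 0.34 to 5.75, which on read pairs held 0 (-0.56 to 8.07). Without water oocyte 1 the water sum was 0, and set to 3 counts over the group it gave a log2 ratio of 1.38. The 95% counting interval for 11 counts against 0 began at 0.84 and had no upper end. Counts of 0 in water oocytes 2 and 3 allow up to 9.97 and 10.6 CPM there, against 10.2 to 15.9 CPM in the phthalate libraries. These limits take each count as 1 read. On read pairs they would be higher, above the level of every phthalate library. Cenpo, a gene on the opposite strand, shares 1380 of the 6246 exon bases of Adcy3 in GENCODE M21. It had 29, 47 and 51 counts in the water libraries and 51, 38 and 33 in the phthalate libraries. The use of strand in counting is not given in the sources used here, so reads of Cenpo and of Adcy3 cannot be told apart over the shared bases.

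Of the 10 adenylyl cyclase genes, 8 had a count, 0 passed the filter on low counts, and Adcy4 and Adcy7 had 0 counts in every library. Together they had 77 counts in water and 81 in phthalate. Per kilobase of the longest transcript, Adcy9 made up 45.6% of the family in water and 44.3% in phthalate. Adcy3 made up 2.6% and 13.9%. By counts the Adcy3 share was 2 of 77 (95% exact interval 0.3% to 9.1%) and 11 of 81 (7.0% to 23.0%), intervals that overlapped. Adcy5 came next to Adcy9, with 2, 12 and 5 counts in the water libraries and 7, 11 and 4 in the phthalate libraries. Large ratios at few counts went both ways. Adcy8 had 4, 5 and 0 counts against 0, 1 and 0, a log2 ratio of -3.10 (-8.55 to -0.25), which on read pairs held 0 (-13.3 to 0.83). Adcy2 had 8 counts in water and 2 in phthalate, a log2 ratio of -1.93. Adcy10 and Adcy6 were higher in phthalate, at 1.39 and 0.66.

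Pde3a, which encodes the phosphodiesterase that ends arrest, had nearly equal sums of 77 and 75 counts. It lies at chr6:141249269-141506862 on the plus strand. The counts were 28, 16 and 33 in the water libraries and 31, 29 and 15 in the phthalate libraries, or 104, 53.2, 116, 123, 98.3 and 54.6 CPM in that order. In each group 1 library, water oocyte 2 at 53.2 CPM and phthalate oocyte 3 at 54.6 CPM, sat below the others, which were at 98.3 CPM or more. The log2 ratio was 0.03 (-0.44 to 0.51), with an interval on read pairs of -0.65 to 0.72. A change of up to about 0.51 on the log2 scale, or 0.72 on read pairs, thus lies inside the counting error.

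Pde3a took the most counts of the 16 cAMP phosphodiesterase genes, with 77 of 245 in the water group (31.4%, 25.7 to 37.6) and 75 of 223 in the phthalate group (33.6%, 27.5 to 40.2). Its longest transcript has 12302 bases, and per kilobase its share was 17.0% and 17.8%. The share per kilobase was low in the same libraries as the level, at 9.9% in water oocyte 2 and 10.1% in phthalate oocyte 3 and between 18.5% and 23.6% elsewhere. Pde3b had 35 counts in water and 31 in phthalate, Pde1b had 40 and 36, and Pde10a had 45 and 27. The intervals of their log2 ratios all held 0. Among phosphodiesterases of fewer counts ratios went both ways. Pde4a had 4 counts in water and 14 in phthalate, a log2 ratio of 1.88 (0.21 to 3.94), which on read pairs held 0 (-0.51 to 5.18). Pde8b had 11 and 4, a log2 ratio of -1.39 (-3.49 to 0.37). Of the 4 phosphodiesterase genes that passed the filter, Pde10a was past 1.5-fold lower at -0.66 (-1.41 to 0.05), where 8.14% of all 4644 genes that passed were. Pde4c, Pde7a and Pde7b had 0 counts in every library.

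The catalytic subunits of protein kinase A were low. Prkaca, which encodes the alpha catalytic subunit, lies at chr8:83972978-83996444 on the plus strand and had 4, 2 and 5 counts in the water libraries and 4, 10 and 0 in the phthalate libraries. Prkacb, the beta subunit, lies at chr3:146729579-146812946 on the minus strand and had 2, 2 and 4 counts against 4, 6 and 2. The libraries of the groups overlapped for both genes. Prkaca had a log2 ratio of 0.42 (-0.83 to 1.70), which was -0.72 without phthalate oocyte 2 and 0.96 without phthalate oocyte 3. Prkacb had one of 0.66 (-0.75 to 2.15), which was 0.32 without phthalate oocyte 2 and 1.08 without water oocyte 3. Per kilobase Prkaca made up 72.4% of the catalytic level in water and 69.0% in phthalate. By counts that was 11 of 19 (33.5% to 79.7%) and 14 of 26 (33.4% to 73.4%), so a difference in the balance was not detectable at this depth.

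Among regulatory subunits, which hold the catalytic subunits inactive, Prkar1a and Prkar2a had more counts than Prkar2b in both group sums, though phthalate oocyte 3 held more of Prkar2b than of Prkar2a. Prkar1a encodes the type I alpha subunit and lies at chr11:109649023-109669663 on the plus strand. It had 42, 32 and 26 counts in the water libraries and 10, 30 and 34 in the phthalate libraries. The value of phthalate oocyte 1, 39.6 CPM, was the lowest, and the other libraries ran from 91.6 to 156 CPM. The log2 ratio was -0.36 (-0.82 to 0.09), and it was -0.03 without phthalate oocyte 1 and -0.71 (-1.28 to -0.17) without phthalate oocyte 3.

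Prkar2a, the type II alpha subunit, lies at chr9:108692143-108750444 on the plus strand. It had 32, 7 and 19 counts in the water libraries and 31, 41 and 8 in the phthalate libraries. The level ran from 23.3 CPM in water oocyte 2 to 139 CPM in phthalate oocyte 2, 5.97-fold, and each group held both low and high libraries. The log2 ratio was 0.54 (0.03 to 1.05), with an interval on read pairs that held 0 (-0.19 to 1.28). It was 1.13 without water oocyte 1 and 0.11 without water oocyte 2. Prkar2b, the type II beta subunit, lies at chr12:31958450-32061648 on the minus strand and had 8, 2 and 6 counts against 6, 2 and 10, a log2 ratio of 0.24 (-0.81 to 1.31).

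The balance of the regulatory subunits ranged widely within each group. Per kilobase of transcript, Prkar1a made up 57.6%, 82.0% and 56.9% of the regulatory level in the water libraries and 26.2%, 49.1% and 67.9% in the phthalate libraries. Prkar2a made up 31.0%, 12.7% and 29.4% against 57.5%, 47.5% and 11.3%, and 26.0% against 37.9% in the sums. Prkar2b made up 11.4%, 5.3% and 13.7% in the water libraries and 16.3%, 3.4% and 20.8% in the phthalate libraries. In phthalate oocyte 3, with 10 counts against 8, its share exceeded that of Prkar2a. By counts, Prkar2a was 31 of 47 in phthalate oocyte 1 (95% exact interval 50.7% to 79.1%) and 8 of 52 in phthalate oocyte 3 (6.9% to 28.1%), intervals that lay apart within 1 group. In the sums Prkar2a took 58 of 174 counts in the water group (26.4% to 40.9%) and 80 of 172 in the phthalate group (38.9% to 54.3%), intervals that overlapped.

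**Figure D2:**
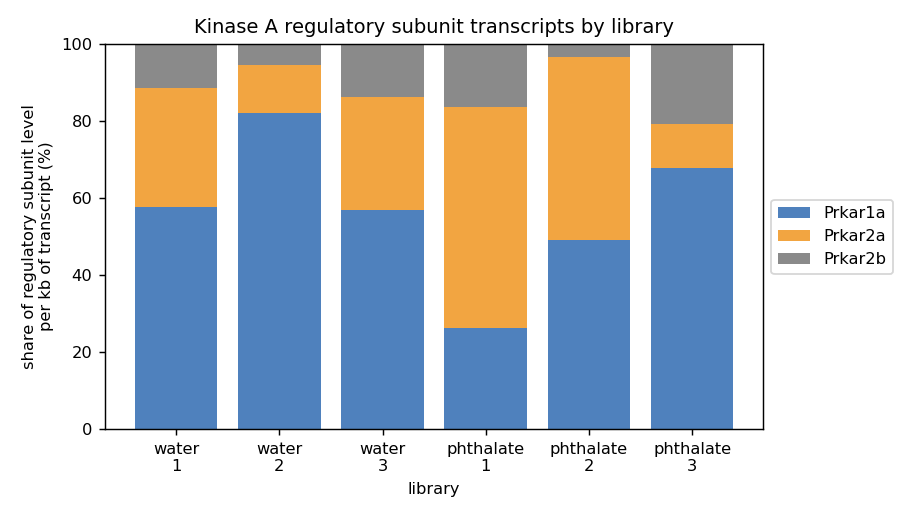
Share of Prkar1a (blue), Prkar2a (orange) and Prkar2b (grey) in the summed regulatory subunit level per kilobase of longest transcript (vertical axis, %), for each of the 6 libraries. Prkar2a runs from 11.3% in phthalate oocyte 3 to 57.5% in phthalate oocyte 1, and water oocyte 2 is at 12.7%.

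Regulatory transcripts exceeded catalytic transcripts in every library. Per kilobase the ratio was 9.37, 8.30 and 4.17 in the water libraries and 4.06, 3.01 and 30.97 in the phthalate libraries, where the last value rests on 2 catalytic counts. In sums it was 6.73 for water and 4.77 for phthalate. Without phthalate oocyte 2 the phthalate ratio was 8.005, above that of water, and without phthalate oocyte 3 it was 3.34. Counts alone gave 9.16 (5.69 to 15.6) and 6.62 (4.36 to 10.4). With the median transcript length of each gene in place of the longest, the ratios were 21.6 and 16.1, so the size of the excess depends on the isoforms assumed. Prkar1b, the remaining regulatory gene, had 2 counts in phthalate oocyte 1 and 0 elsewhere.

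Ordered by level per kilobase, as counts per kilobase scaled to 1000000 per library (TPM) and averaged over the 6 libraries, Gnas and Prkar1a led with 64.7 and 64.6 TPM. Prkar2a followed with 37.3 and Gpr3 with 35.1 TPM. Pde3a, Adcy9, Prkaca and Prkar2b lay at 16.5, 16.3, 14.5 and 13.5 TPM, and Prkacb and Adcy3 closed the order at 6.10 and 3.15 TPM. The ranges over libraries of all neighbours in this order overlapped. Gnas stood at percentile 82.2 of all genes with a count and Adcy3 at percentile 27.2. With median transcript lengths Prkar1a led with 113 TPM, followed by Prkar2a with 101 and Gnas with 71.2 TPM, and the other members kept their places.

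Across the 10 members the log2 ratio of phthalate over water was above 0 in 7 and below 0 in 3, with a median log2 ratio of 0.16. That median includes 5 members too thinly read to pass the filter on low counts. Of the 5 that passed it (Gpr3, Gnas, Pde3a, Prkar1a and Prkar2a), 2 were above 0 and 3 below, with a median of -0.12, so the direction of the median turned with the filter. Over the 4644 genes that passed, the median was 0.01. For the 4 members that averaged at least 20 counts it was -0.04, with 2 above 0 and 2 below, against 0.02 over all 2784 genes at that depth. Past 1.5-fold lay 3 of 10 members, Adcy3 and Prkacb higher and Gpr3 lower, against 15.1% of the 4644 genes in either direction (6.96% higher and 8.14% lower). Of the 3613 genes that averaged 1 to 5 counts, where Adcy3 and Prkacb lie, 63.3% were past 1.5-fold. Non-overlapping groups were seen for 2 of 10 members, Gpr3 and Adcy3, against 10.1% of the 4644 genes (5.0% lower and 5.15% higher in phthalate). Of the 5 members that passed the filter, Gpr3 alone was past 1.5-fold or without overlap. Of the 4 that averaged at least 20 counts, 0 were past 1.5-fold and 0 without overlap, where the shares of the 2784 genes were 8.12% and 10.2%, so counts of 0 among 4 genes are near the background. For 7 of the 10 members the 95% interval of the ratio held 0, and on read pairs it did so for 9, all but Gpr3.

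**Figure D3:**
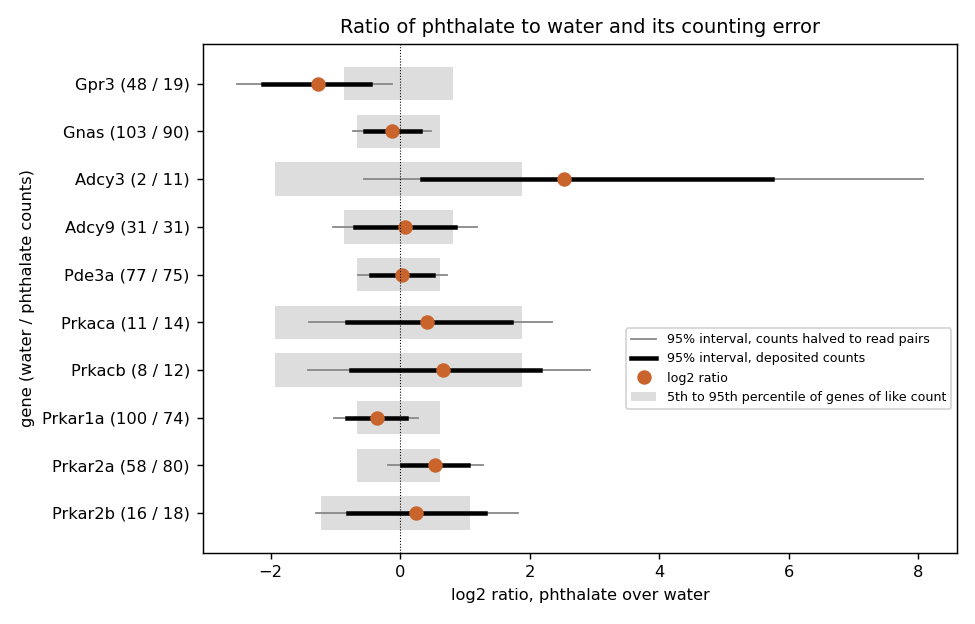
Log2 ratio of phthalate over water (horizontal axis, orange points) of each gene, with the 95% counting interval from deposited counts (black) and from read pairs (thin grey), over the 5th to 95th percentile of genes of like mean count (grey bars). Gpr3 at -1.26 and Adcy3 at 2.53 lie outside their grey bars, and the thin interval of Gpr3 ends at -0.13.

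Single libraries moved these values. With 1 library left out the log2 ratio changed sign for 5 members (Gnas, Adcy9, Pde3a, Prkaca and Prkar2b). Without phthalate oocyte 3, 6 members were past 1.5-fold (Gpr3, Adcy3, Prkaca, Prkacb, Prkar1a and Prkar2a), and the groups did not overlap for 4 (Gpr3, Adcy3, Prkacb and Prkar2a). Of the 5 members that passed the filter these were 3 and 2, against 19.6% and 24.5% of the 4644 genes. Without phthalate oocyte 2, 5 members were past 1.5-fold (Gpr3, Gnas, Adcy3, Prkaca and Prkar2b), 2 of them among the 5 that passed, against 18.3% of genes. Without water oocyte 2 only Gpr3 and Adcy3 were, 1 of them among the 5, against 17.9%.

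The members varied widely between libraries of the same group. Their summed level was 712, 372 and 529 CPM in water oocytes 1, 2 and 3 and 535, 664 and 338 CPM in phthalate oocytes 1, 2 and 3. On CPM, water oocyte 2 was below the mean of the gene for 8 of 10 members and phthalate oocyte 3 for 7. Over the 4644 genes these libraries were below the mean for 53.5% and 60.4%. Water oocyte 2 was the lowest library for 5 members, Adcy3 by a tie, and phthalate oocyte 3 for 4, where over the 4644 genes they were lowest for 15.7% and 23.4%. Phthalate oocyte 2 was the highest for 5 members and for 17.2% of the genes. On TMM-scaled levels water oocyte 2 was below the mean for 7 members and 52.0% of genes and phthalate oocyte 3 for 7 and 50.7%. Each was then lowest for 4 members and phthalate oocyte 2 was highest for 5. Of the 5 members that passed the filter each of these counts was 2, against 15.4%, 18.0% and 15.3% of the 4644 genes. The markers of follicle cells other than Nr5a2 had 7, 0 and 4 counts in the water libraries and 3, 11 and 2 in the phthalate libraries, and their part in this spread was not tested.

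Measured on read pairs, the spread of Prkar2a within a group (chi-square per degree of freedom against equal shares of library depth) was 4.77 in water and 5.03 in phthalate. For genes that averaged 20 to 40 counts the 95th percentile was 3.58 in water and 3.90 in phthalate. Gnas had 1.31 in water and 5.24 in phthalate. No other member exceeded the 95th percentile of genes of like count in either group, so 2 of 10 did.

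**Figure D4:**
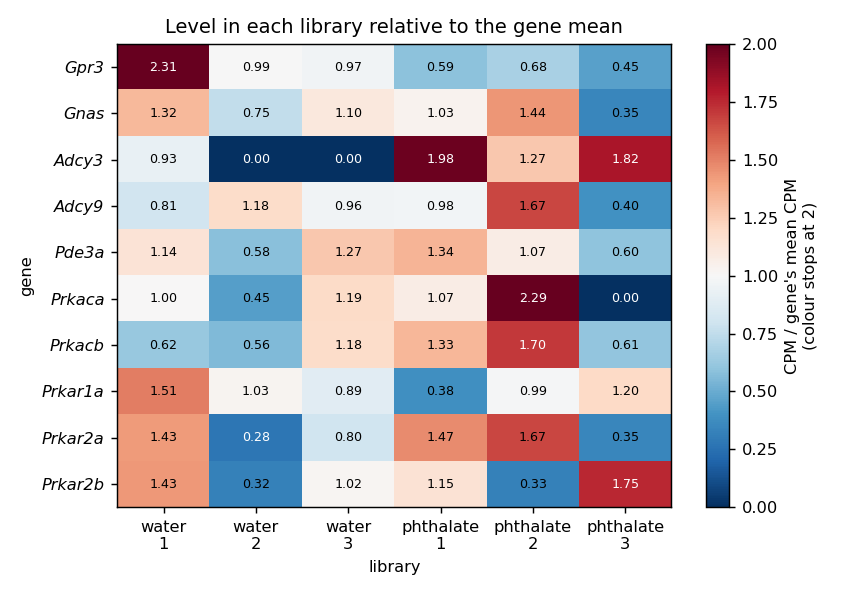
Level of each gene (rows) in each library (columns) divided by the mean CPM of that gene over the 6 libraries, printed in the cells and coloured from blue (0) to red (2 or more). Water oocyte 2 and phthalate oocyte 3 are low for Gnas, Pde3a, Prkaca, Prkacb and Prkar2a, while Prkar1a is lowest in phthalate oocyte 1 and Prkar2b is high in phthalate oocyte 3.

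Other genes of the pathway were taken from lists by role. In the list of Gs-coupled receptors and G proteins 24 genes were in the table and 10 passed the filter, 4 with a higher and 6 with a lower level in the phthalate group, with a median log2 ratio of -0.18 that became 0.014 without phthalate oocyte 3. Past 1.5-fold lower were 3 of the 10 (Gpr3, Gnb1 and Gng5) and past 1.5-fold higher 0, against 8.14% and 6.96% of the 4644 genes, the background for the lists that follow as well. The Gi alpha subunits, which oppose Gs at the cyclases, had log2 ratios of 0.51 for Gnai1 (-0.05 to 1.08), -0.24 for Gnai2 (-0.65 to 0.17) and 0.25 for Gnai3 (-0.35 to 0.85). Rgs2, which encodes a regulator that shortens G protein signals, had 452, 683 and 658 counts in the water libraries and 566, 598 and 611 in the phthalate libraries. At 1557 TPM it was far above the members, and its log2 ratio was 0.06 (-0.04 to 0.15). Gnb4 had a log2 ratio of 0.15 and Gng12 one of -0.44 (-0.78 to -0.11), which on read pairs held 0 (-0.93 to 0.04). Gng12 had 178, 243 and 208 CPM in the water libraries and 139, 153 and 167 CPM in the phthalate libraries, without overlap, whereas on TMM-scaled levels the groups overlapped.

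Of 18 kinase A inhibitors and anchoring proteins 7 passed the filter, 5 with a higher and 2 with a lower level in the phthalate group, a median of 0.18 and 0 past 1.5-fold. The median was -0.11 without phthalate oocyte 3, 0.02 without water oocyte 1 and 0.40 without phthalate oocyte 1. The anchors hold the kinase at particular sites in the cell. Akap12 was read best, with 79, 82 and 69 counts in the water libraries and 62, 75 and 52 in the phthalate libraries and a log2 ratio of -0.21 (-0.50 to 0.07). Akap1, which places the kinase at mitochondria, had a log2 ratio of -0.28, Akap5 one of 0.45, Akap9 one of 0.18 and Akap13 one of 0.28, and each interval held 0.

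Of the 16 genes of cGMP supply and gap junctions, 11 had a count and 2, Gja4 and Pde6d, passed the filter. Nppc, Npr1, Npr2, Gucy1a1 and Gja1 had 0 counts in every library, which at this depth does not show that they are absent. Gucy1a2, Gucy1b1, Pde5a and Gjc1 had 2 counts each over all libraries and Gja5 had 5. Prkg1, a kinase that cGMP activates, had 4, 9 and 11 counts in the water libraries and 2, 8 and 6 in the phthalate libraries, and the groups overlapped. Gjb2, which encodes another connexin, had 0 counts in the water libraries and 1, 4 and 2 in the phthalate libraries. Gja4, which encodes the connexin of the oocyte side of the gap junction, had 428, 433 and 382 counts in the water libraries and 381, 396 and 454 in the phthalate libraries. Its mean level was 1940 TPM and its log2 ratio 0.06 (-0.06 to 0.17). Pde6d, which encodes a carrier of lipid-modified proteins despite its name, had a log2 ratio of -0.17 (-0.40 to 0.06).

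Genes on which the kinase acts, and those of the cyclin B switch, were read more deeply than the members. Of 23 genes 19 passed the filter, with a median log2 ratio of -0.05 (0.06 without phthalate oocyte 1), 17 within 1.5-fold, 1 higher (Pkmyt1, 0.69) and 1 lower (Mastl). Wee2, which encodes the oocyte kinase that blocks CDK1, had 119, 143 and 107 counts in the water libraries and 85, 125 and 129 in the phthalate libraries, a log2 ratio of -0.05 (-0.27 to 0.17). Cdc25b, the phosphatase held in check during arrest, had a ratio of -0.26 (-0.88 to 0.35) from 53 and 42 counts. Cdk1, Ccnb1 and Cdc25a had log2 ratios of -0.04, -0.01 and -0.14. Ccnb2, a second B-type cyclin, had one of 0.34 (-0.20 to 0.88), and Fzr1, an activator of the ubiquitin ligase that destroys B-type cyclins, one of 0.13 (-0.27 to 0.52). The phosphatase catalytic subunits Ppp1ca and Ppp2ca had log2 ratios of -0.50 (-1.06 to 0.04) and -0.05 (-0.59 to 0.49).

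Mastl, which encodes the kinase that restrains a phosphatase at entry into division, averaged over 20 counts and was past 1.5-fold, alone among the genes of this list at that depth. It had 32, 22 and 40 counts in the water libraries and 23, 23 and 13 in the phthalate libraries, a log2 ratio of -0.60 (-1.09 to -0.11). On read pairs the Mastl interval held 0 (-1.32 to 0.09), and the libraries overlapped. Its substrate Arpp19, also a target of kinase A, had a ratio of 0.21 (-0.06 to 0.48). Ywhae, which encodes a 14-3-3 protein, had 47, 60 and 62 counts against 88, 84 and 66, without overlap and with a log2 ratio of 0.57 (0.28 to 0.86). The other 14-3-3 genes read at this depth, Ywhab, Ywhag, Ywhaq and Ywhaz, had log2 ratios of 0.23, -0.18, -0.25 and -0.28. Crebbp, the coactivator of the cAMP response factor, had a log2 ratio of 0.01 (-0.23 to 0.25), and of the 10 genes of that list 3 passed the filter, of which Ep300 was past 1.5-fold lower at -0.79 (-1.45 to -0.15). The wider interval of Ep300 on read pairs is not given here.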

How the data were processed

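Poly(A) RNA of single GV oocytes was made into Smart-seq3 libraries (oligo(dT) priming and template switching) and sequenced as read pairs of 150 bp, per the labels' protocols. The authors deposited raw counts per gene symbol for 25239 genes and 92 ERCC spike-in RNAs. The submitters' processing notes name cutadapt, Trimmomatic, HISAT2, DESeq2 and the build mm10. The counting tool, annotation, use of strand and handling of molecular identifiers are not given in the sources used here.

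Counts of ERCC stayed out of all totals. Group ratios are summed counts over group totals scaled by TMM (edgeR 4.0.16, R 4.3.3), with the exact (Clopper-Pearson) interval at 95%, and a sum of 0 is set to 3 counts over the group. No pseudocount was used. Overlap of groups was judged on TMM-scaled levels, and on plain CPM 2 members were again without overlap, with 10.01% of the 4644 genes against 10.1%. The filter was filterByExpr (minimum count 10, minimum total 15), which kept 4644 genes. TPM used the longest GENCODE M21 transcript, found for 24706 symbols, and median lengths as an alternative. Gene positions are from RefSeq on GRCm38. Single cells of unnamed animals are not replicates, so no count model was fitted.

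The members and lists were chosen with earlier results of these data known. Named are all members, and the relatives in the lists that averaged at least 20 counts. Other list genes (such as Gnai1, Gnai3, Gnb1, Gng5, Adcy5, Pde1b, Pde3b, Pde10a, Prkar1b, Cdc25b, Pkmyt1, Ep300 and those at 0) were named beside them after their values were seen. Protein sequences were not used here. Alternatives were plain totals, DESeq2 size factors (DESeq2 1.42.0), other filters, means over oocytes, other lengths and each library left out.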

Additional observations from a re-analysis of the deposited data

How the results depend on the processing

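Plain library totals, DESeq2 size factors and means over oocytes changed no member ratio by more than its counting interval and kept the number of members past 1.5-fold within 1.5 times. Restricting to members with a mean count of at least 20 left 0 past 1.5-fold and 0 without overlap, of 4, where 8.12% and 10.2% of all genes at that depth were, and turned the median to -0.04. Restricting to members that passed filterByExpr, an alternative chosen after seeing the data, left 1 and 1 of 5, against 15.1% and 10.1% of the 4644 genes, and a median of -0.12. Leaving out 1 oocyte gave from 2 to 6 members past 1.5-fold, from 2 to 4 without overlap, and a median log2 ratio from -0.23 to 0.33. The shares of the 4644 genes rose too, to between 16.9% and 19.6% past 1.5-fold and between 18.2% and 24.5% without overlap.

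By member, leaving out 1 oocyte gave log2 ratios from -1.47 to -0.77 for Gpr3, -0.59 to 0.23 for Gnas, -0.52 to 0.41 for Adcy9, -0.24 to 0.26 for Pde3a, -0.72 to 0.96 for Prkaca, 0.32 to 1.08 for Prkacb, -0.71 to -0.03 for Prkar1a, 0.11 to 1.13 for Prkar2a and -0.39 to 0.74 for Prkar2b. For Adcy3 it gave 1.38 to 2.74, the lower value resting on a floor, since the water sum without water oocyte 1 was 0 and was set to 3 counts. For Gpr3 and Adcy3, whose groups do not overlap, the sign could not change.

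List medians ranged from -0.31 to 0.014 for receptors and G proteins, -0.24 to 0.05 for phosphodiesterases, -0.16 to 0.49 for kinase subunits, -0.11 to 0.40 for inhibitors and anchors, -0.19 to 0.01 for cGMP and gap junctions, -0.20 to 0.06 for kinase targets and -0.66 to -0.049 for cAMP-responsive transcription. Without a filter the cGMP and gap junction median was 0.57, since genes of few counts then entered.

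The share of Pde3a without a length correction was 31.4% in water and 33.6% in phthalate, and with each oocyte left out 14.1% to 20.96% and 15.6% to 22.0%. The share of Adcy3 ranged from 0 to 4.66% and from 10.9% to 21.9%, and that of Prkaca from 69.0% to 74.1% and from 56.0% to 72.8%. The regulatory to catalytic ratio ranged from 5.41 to 8.96 in water and 3.34 to 8.005 in phthalate, and with median transcript lengths it was 21.6 in water, since the median transcripts of Prkar1a and Prkar2a have 962 and 871 bases. No paired analysis was possible because the labels tie the replicate numbers, which both groups share, to no common animal, culture or day. With 252267 to 300917 counts per library, only 4 members had a mean count of at least 20.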

Other observations

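Among the genes of the cyclin B switch, 2 with few counts had groups that did not overlap. They were picked after their values were seen. Ccnb3, which encodes a cyclin of oocyte meiosis, had 13, 10 and 11 counts in the water libraries and 0, 4 and 4 in the phthalate libraries, a log2 ratio of -2.02 (95% counting interval -3.34 to -0.88). Cdc25c, which encodes a phosphatase that activates CDK1, had 1, 0 and 2 counts against 3, 10 and 3, a log2 ratio of 2.49 (0.68 to 4.91). On read pairs the interval of Cdc25c held 0 (-0.06 to 6.48), and that of Ccnb3 was -4.05 to -0.40. Neither passed the filter on low counts, and groups without overlap were seen for 10.6% of genes with a mean count from 5 to 10 and 9.63% of those from 1 to 5.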
